A study of Mus musculus with 8 samples.

Results

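The 10 genes described here encode the main parts of the MHC class I presentation pathway, namely the heavy chains *H2-K1*, *H2-D1*, *H2-T22* and *H2-T23*, the light chain *B2m*, the peptide transporter subunits *Tap1* and *Tap2*, the loading factor *Tapbp*, and the immunoproteasome subunits *Psmb8* and *Psmb9*. They were chosen by name, and all 10 were found among the 24787 genes listed in the count tables of 8 mouse MC38 tumors. MC38 is a colon carcinoma line from a C57BL/6 mouse, and by the study's methods the hosts were female C57BL/6J mice aged 8 weeks. The tumors were taken 24 hours after an injection of saline (3 tumors), of free R848 (3 tumors), which is resiquimod, an agonist of Toll-like receptors 7 and 8, or of medium R848-BPDs (2 tumors). Medium R848-BPDs are PEG bottlebrush polymers that carry R848 as a prodrug on the MPE linker. All groups carried MC38 tumors, and the labels name no other agent or allele. After dissociation and bead separation, immune (CD45+) cells were enriched 9 to 1 over CD45- cells for Seq-Well, which counts each transcript by its unique molecular identifier (UMI).

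Class I molecules show short peptides from inside a cell to CD8+ T cells. The proteasome cuts proteins into peptides, and after exposure to interferon its catalytic subunits are exchanged for those encoded by *Psmb8*, *Psmb9* and *Psmb10*. TAP carries the peptides into the endoplasmic reticulum, where tapasin and partner chaperones load them onto a heavy chain paired with β2-microglobulin. Tumors that lose class I from their surface can escape CD8+ T cells, and dendritic cells use the same machinery to cross-present tumor antigen.

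Of 10791 barcodes, 9886 passed the study's limits on genes, UMIs and mitochondrial reads, at 5867590 to 12422614 UMIs per tumor. Cells were sorted by marker genes, none of which is a class I gene, into classes called MC38-like (1517 cells), monocyte/macrophage-like (5762), NK-like (917), DC-like (450) and T-like (400). The ending "-like" marks that the names rest on these markers. The MC38 markers *Mtap*, *Rhox5*, *Col6a2* and *Fam159b* averaged 736, 859, 904 and 212 CPM in MC38-like cells, where CPM is the gene's UMIs scaled to an equal total per sum of cells. In monocyte/macrophage-like cells they averaged 62.4, 33.1, 17.6 and 5.95 CPM. Fibroblast markers were also read in MC38-like cells. They summed to 739 to 2183 CPM after saline, 845 to 991 after free R848 and 720 to 1759 after medium R848-BPDs. Of 175 cells sorted as fibroblasts, 128 lay in clusters named MC38. Whether fibroblasts are among the MC38-like cells was not tested. Clustering put 99.0% of MC38-like and 94.0% of monocyte/macrophage-like cells in clusters of the same name, but only 66.0% of DC-like cells, and 133 of the 450 DC-like cells lay in clusters named monocyte/macrophage. Saline replicate 2 held only 10 DC-like cells. It also had the highest level of all 10 members in MC38-like cells and of 7 of 10 in monocyte/macrophage-like cells among the saline tumors. In the count tables, 23 barcode sequences occurred in more than 1 tumor (59 of the cells kept). Tumors, not cells, were taken as replicates, the labels do not say which tumors shared an array or a sequencing run, and a batch cannot be told apart from the treatments.

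*B2m* lies on chromosome 2 (122147686 to 122153083, + strand, GRCm38) and the other 9 members lie in the MHC on chromosome 17. From centromere to telomere these are *Tapbp* (33915899 to 33929292), *H2-K1* (33996017 to 34000347), the adjoining *Psmb9* (34181987 to 34187764), *Tap1* (34187553 to 34197225), *Psmb8* (34197721 to 34201454) and *Tap2* (34203527 to 34216321), then *H2-D1* (35262730 to 35267499), *H2-T23* (36029773 to 36032855) and *H2-T22* (36037128 to 36042747). All are protein-coding. *Psmb9* and *Tap1* point away from each other, and their promoter windows of 300 bases share 275 bases (chr17:34187306-34187580).

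Promoter stretches are shown first for the members with a motif match, since class I genes share short interferon and NF-κB motifs next to their start sites. RefSeq windows (GRCm38.p6) from 250 bases before to 50 after the start site were found for 9 of the 10 members, *Tap2* being the exception. They were searched on both strands for a long interferon-response motif (GAAA, any 2 bases, GAAA), a shorter one (GAANNGAAA), the STAT letters TTCNNNGAA and a κB motif bound by NF-κB, spelled by the first capitals of the *H2-K1* and *H2-D1* stretches. These matches did not overlap each other. Stretches of 30 bases that hold the matches, 5′ to 3′ on the gene's strand with matches in capitals, are
H2-K1, chr17:34000429-34000458 on the - strand: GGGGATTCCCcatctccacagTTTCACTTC
H2-D1, chr17:35262923-35262952 on the + strand: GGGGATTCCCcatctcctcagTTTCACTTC
B2m, chr2:122147538-122147567 on the + strand: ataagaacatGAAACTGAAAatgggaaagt
H2-T22, chr17:36042914-36042943 on the - strand: attggcttagTTTCACTTTCgaatccccaa
H2-T23, chr17:36032806-36032835 on the - strand: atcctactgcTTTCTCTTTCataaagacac
Psmb8, chr17:34198088-34198117 on the + strand: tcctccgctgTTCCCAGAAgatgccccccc

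*H2-K1* and *H2-D1* share the pair of an NF-κB match and an interferon-response match at the same spacing, and 29 of these 30 bases are identical. The *H2-D1*, *H2-T23* and *Psmb8* stretches lie within the genes' GENCODE spans, upstream of the RefSeq start sites used. The κB motif occurred in 0.107% of all 32851 windows of this length and in 2 of the 9 members. Its letters are those of the *H2-K1* and *H2-D1* stretches, so these 2 matches are a description and not a test. The long interferon-response motif occurred in 3.44% of windows and in *B2m*, *H2-T22* and *H2-T23*, and the shorter one in 7.52% and in *H2-K1* and *H2-D1*. The STAT letters occurred in 8.30% of windows and in *Psmb8* alone among the members. *Tapbp*, *Tap1* and *Psmb9* had no match to any of these letters in this window. For context, all bases of the window that lie before the annotated gene are given for *H2-K1* and for *H2-T22*, the member called most often against saline.
H2-K1, chr17:34000348-34000597 on the - strand: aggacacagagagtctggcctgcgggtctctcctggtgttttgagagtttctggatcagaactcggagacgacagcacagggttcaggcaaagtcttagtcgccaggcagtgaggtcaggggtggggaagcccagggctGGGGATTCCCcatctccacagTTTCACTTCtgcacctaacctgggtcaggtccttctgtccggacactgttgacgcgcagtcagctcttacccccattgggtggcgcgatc
H2-T22, chr17:36042748-36042992 on the - strand: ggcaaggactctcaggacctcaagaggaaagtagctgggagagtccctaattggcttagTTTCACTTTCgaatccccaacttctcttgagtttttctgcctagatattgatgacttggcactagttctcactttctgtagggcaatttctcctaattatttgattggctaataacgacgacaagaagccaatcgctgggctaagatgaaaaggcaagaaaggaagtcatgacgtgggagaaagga

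The first comparison asked how class I transcripts differ between tumor cells and the immune cells around them. By CPM in saline tumors, MC38-like cells had the lowest *B2m* level of the 5 classes and less *H2-K1*, *H2-D1* and *Psmb8* than each immune class. *H2-T23* was close to absent from them. Relative to MC38-like cells, 5 of 10 members were higher in NK-like, 8 in T-like, 9 in DC-like and 9 in monocyte/macrophage-like cells, and none was lower (edgeR's quasi-likelihood test, Benjamini-Hochberg adjusted p below 0.05, tumor as a block). These counts stand against a high background, because classes of cells differ in many genes. Of 10880 genes tested, 24.2% were higher in NK-like, 20.2% in T-like, 23.3% in DC-like and 33.4% in monocyte/macrophage-like cells, and 55.7%, 45.2%, 52.3% and 69.7% were called in either direction. The median log2 difference of the members was 0.40, 0.97, 1.13 and 0.82 in the same order, against -0.14, -0.18, -0.24 and -0.07 over all genes. Values in CPM are shares of a cell class's own transcripts. Less RNA per cell and fewer transcripts of other genes cannot be told apart from a higher level of the gene by CPM alone. MC38-like cells had a higher median of UMIs per cell than each immune class in every saline tumor. It was 10328, 13494 and 7706 UMIs in replicates 1, 2 and 3, against 4360, 6088 and 3182 in monocyte/macrophage-like cells. These 151, 243 and 81 MC38-like cells held 17704 UMIs of *H2-K1* in all, and the 837, 1013 and 733 monocyte/macrophage-like cells held 52543. The order of classes by CPM is therefore not an order per cell.

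**Figure D1:**
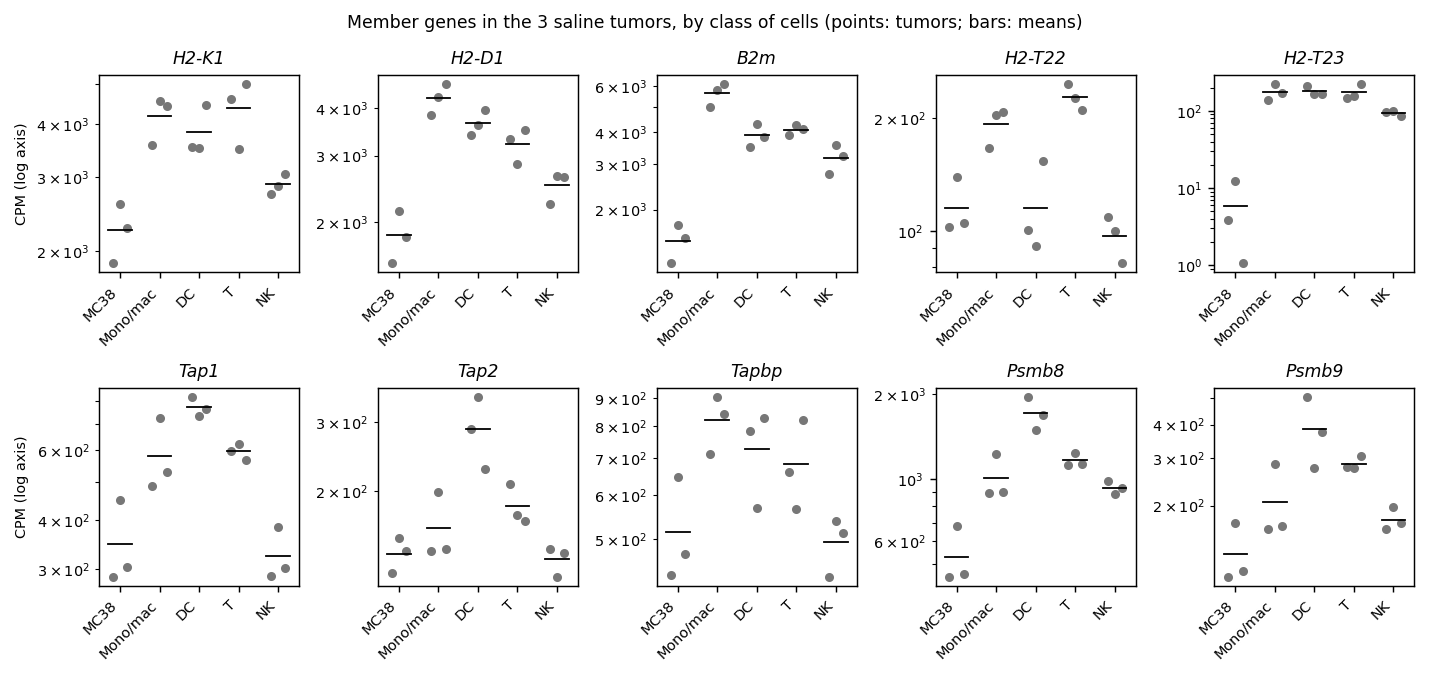
Each panel plots the CPM (log axis, which differs between panels) of 1 member gene in the sums of the 5 classes of cells in the 3 saline tumors, with bars at the means. MC38-like cells lie below all 4 immune classes in *B2m*, *H2-D1* and *H2-T23*, and overlap with NK-like cells in *Tap1*, *Tap2* and *Tapbp*.

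*B2m*, which encodes the light chain needed by every class I molecule, was 1238, 1737 and 1549 CPM in the MC38-like cells of saline replicates 1, 2 and 3. In monocyte/macrophage-like cells it was 4983, 5823 and 6150.0 CPM. No tumor's MC38-like cells reached the level of any immune class. The log2 difference from MC38-like cells was 1.91 ± 0.12 (SE, adjusted p = 5.2e-14, edgeR) in monocyte/macrophage-like cells, and 1.08 in NK-like, 1.45 in T-like and 1.37 in DC-like cells, all called.

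The classical heavy chains differed less. *H2-K1* was 1868, 2579.8 and 2268 CPM in MC38-like cells and 3565, 4551 and 4422 in monocyte/macrophage-like cells. *H2-D1* was 1559.8, 2147 and 1836 CPM against 3847, 4278 and 4651. In both genes the monocyte/macrophage-like cells lay above the MC38-like cells in every tumor, with log2 differences of 0.90 ± 0.16 and 1.21 ± 0.14 (adjusted p = 7.3e-06 and 7.2e-09, edgeR). NK-like cells were the nearest to the tumor cells, at 0.36 ± 0.15 for *H2-K1* (adjusted p = 0.045, edgeR) and 0.44 ± 0.14 for *H2-D1* (0.0075). The *H2-K1* call in NK-like cells was lost with RLE size factors (adjusted p = 0.10) and without saline replicate 1 (0.11), saline replicate 3 (0.067) or free R848 replicate 3 (0.064).

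*H2-T23* encodes Qa-1, a nonclassical molecule that binds the NKG2A receptor of NK and T cells. In MC38-like cells it was read by 9, 54 and 1 UMIs in the 3 saline tumors, or 64 UMIs of 6504248, against 2292 of 14794776 in monocyte/macrophage-like cells. On the CPM scale this was 3.87, 12.4 and 1.06 against 136, 219.8 and 169, and the other immune classes lay between 86.5 and 225. The fitted log2 difference was 3.69 ± 0.31 in NK-like, 4.52 ± 0.35 in T-like, 4.76 ± 0.35 in DC-like and 4.56 ± 0.29 in monocyte/macrophage-like cells (all called by edgeR). Over the 8 tumors, the few UMIs in MC38-like cells were in the range at which macrophage transcripts also appear there. Whether they come from macrophages was not tested. In CPM of each sum's own total UMIs, without the TMM scaling of the values above, the *H2-T23* level of MC38-like cells over the 8 tumors was 0.94% to 7.51% (median 3.03%) of that in monocyte/macrophage-like cells. The same unscaled percentage was 0.69% to 7.50% (median 2.49%) for the summed macrophage markers and 27.0% to 40.3% for *B2m*. *H2-Q6* and *H2-Q7*, nonclassical heavy chain genes that are no members, were likewise at 2.41% to 8.91% and 1.88% to 10.4%. Tumor by tumor the percentages differed. In saline replicates 1, 2 and 3, *H2-T23* was at 4.09%, 7.51% and 0.94%, and the macrophage markers at 1.28%, 5.15% and 3.65%.

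*H2-T22*, a nonclassical gene whose product can be bound by some γδ T cells, did not follow this order. It was 102, 139 and 105 CPM in MC38-like cells, 101, 91.5 and 154 in DC-like and 109, 99.8 and 82.1 in NK-like cells, and these 3 classes overlapped. It was higher in monocyte/macrophage-like cells by 0.73 ± 0.17 on the log2 scale (adjusted p = 0.00027, edgeR) and in T-like cells by 0.98 ± 0.20 (0.00015).

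By their means, the immunoproteasome genes were highest in DC-like cells. *Psmb8* was 450.5, 678 and 459 CPM in MC38-like cells, against 1951, 1483 and 1682 in DC-like cells, with a log2 difference of 1.73 ± 0.17 (adjusted p = 5.4e-10, edgeR). *Psmb9* was 109, 172 and 115 against 507, 275 and 376 (1.72 ± 0.21, adjusted p = 5.9e-08, edgeR). The third immunoproteasome gene went the other way. *Psmb10*, which is not a member, was lower than in MC38-like cells in all 4 immune classes, by log2 differences of -1.34 ± 0.18 in NK-like, -1.22 ± 0.20 in T-like, -0.83 ± 0.20 in DC-like and -0.42 ± 0.17 in monocyte/macrophage-like cells (all called by edgeR). Of the 7 other subunits of the 20S β ring, which include the constitutive counterparts *Psmb5*, *Psmb6* and *Psmb7*, 2 were lower in DC-like and 6 in T-like cells and none was higher in either. In monocyte/macrophage-like cells 1 was higher and 2 lower, and in NK-like cells 1 was lower. Of all 10880 genes, 3158 were lower in DC-like, 2717 in T-like, 3947 in monocyte/macrophage-like and 3418 in NK-like cells, so 2 of 7 in DC-like cells is near the share over all genes.

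Both transporter genes were higher in DC-like cells than in the tumor cells, without overlap. *Tap1* was 287, 449.7 and 304 CPM in MC38-like cells and 819, 732 and 764 in DC-like cells (1.22 ± 0.17, adjusted p = 5.5e-07, edgeR). *Tap2* was 123, 151 and 140.1 against 289, 348 and 228 (1.03 ± 0.18, adjusted p = 2.1e-05, edgeR). *Tapbp*, which encodes tapasin, overlapped between the same classes at 429.8, 647 and 469 against 784, 567 and 827 CPM (0.55 ± 0.18, adjusted p = 0.014, edgeR), and its call was lost without saline replicate 1 (0.20) or 3 (0.087). In NK-like cells none of these 3 genes was called, with log2 differences of -0.09, -0.03 and -0.07 from MC38-like cells.

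Among the regulators, *Nlrc5*, which encodes the transactivator of class I genes, was 29.3, 38.1 and 21.2 CPM in MC38-like cells and 66.5, 94.2 and 67.0 in monocyte/macrophage-like cells (log2 difference 1.34 ± 0.22, adjusted p = 3.9e-06, edgeR). Of the 10 regulators and interferon receptors listed, 3 were higher in NK-like, 4 in T-like, 7 in DC-like and 9 in monocyte/macrophage-like cells than in MC38-like cells, and 4 were lower in NK-like and 1 in T-like cells. Of all 10880 genes, 24.2%, 20.2%, 23.3% and 33.4% were higher in the same order of classes. Lower were 3418, 2717, 3158 and 3947 genes. The counts in NK-like cells are near these shares. *Irf1*, an interferon-induced activator of class I genes, was not called in monocyte/macrophage-like cells (-0.47 ± 0.26) and was lower in T-like (-1.61 ± 0.32) and NK-like cells (-2.39 ± 0.29). Of the 12 other class I presentation genes, 5 were higher and 2 lower in monocyte/macrophage-like cells, so the higher count is near the share over all genes. The counts were 7 and 3 in DC-like, 5 and 3 in T-like and 5 and 2 in NK-like cells. In monocyte/macrophage-like cells *H2-Q6* and *H2-Q7* differed from MC38-like cells by 4.46 ± 0.27 and 4.47 ± 0.37. *Canx*, which encodes the chaperone calnexin, was lower in each immune class (-0.38 to -1.18, all called).

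Single cells were also compared at an equal depth, after thinning every cell to 1000 UMIs. This left out 30 cells of saline, 11 of free R848 and 4 of medium R848-BPD tumors. At this depth, cells with a UMI of *H2-K1* or *H2-D1* and a UMI of *B2m* made up 68.7%, 82.3% and 76.2% of MC38-like cells in the saline tumors. Among monocyte/macrophage-like cells they made up 94.5%, 98.6% and 97.2%. MC38-like cells with a heavy chain UMI but none of *B2m* were 14.3% to 31.9% over the 8 tumors, against 0.56% to 4.07% of monocyte/macrophage-like cells, and cells with neither were 0% to 4.0% and 0% to 0.27%. The share is set largely by the depth. In MC38-like cells it was 2.52% to 11.8% at 2000 UMIs and 0% to 1.77% without thinning, where 96.5% to 100% of cells had both chains. In monocyte/macrophage-like cells it was 0% to 0.494% at 2000 UMIs and 0% to 0.409% without thinning. No class of cells here lacks class I genes, so no background share could be read for them, and these shares are descriptions. *H2-T23* was seen in 1.25% to 2.88% of MC38-like cells in saline tumors and in 10.4% to 18.4% of monocyte/macrophage-like cells.

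**Figure D2:**
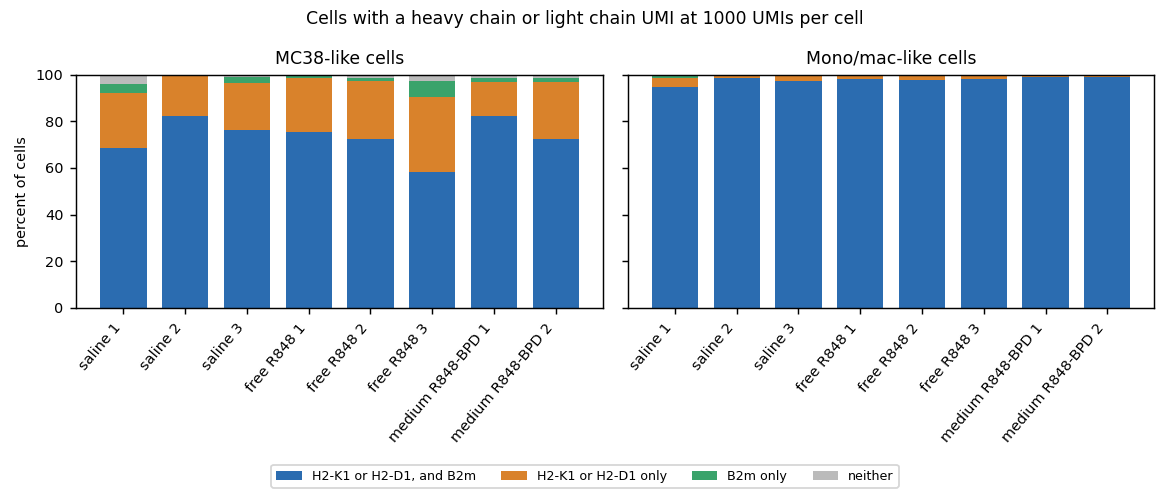
Stacked bars give, for each tumor, the percent of MC38-like (left) and monocyte/macrophage-like cells (right) with UMIs of a classical heavy chain gene, of *B2m*, of both or of neither, at 1000 UMIs per cell. At this depth, cells with a heavy chain UMI only make up 14.3% to 31.9% of a bar for MC38-like cells (2.52% to 11.8% at 2000 UMIs) and at most 4.07% for monocyte/macrophage-like cells.

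The second comparison asked whether free R848 or medium R848-BPDs changed these transcripts 24 hours after dosing. Of 150 tests (10 members, 5 classes of cells, 3 contrasts), 4 passed the threshold, and all 4 were higher after treatment than after saline. They were *H2-T22* in DC-like cells after both treatments and, after medium R848-BPDs, *H2-K1* in DC-like and *H2-T22* in monocyte/macrophage-like cells. No member was called in MC38-like, T-like or NK-like cells, and none was called between the 2 treatments in any class. The 2 contrasts with saline share the same 3 saline tumors and are not independent of each other. CPM of the members are scaled here by TMM within a class of cells, and were scaled across the 5 classes in the comparison of classes, so the same sum has a different CPM in each.

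**Figure D3:**
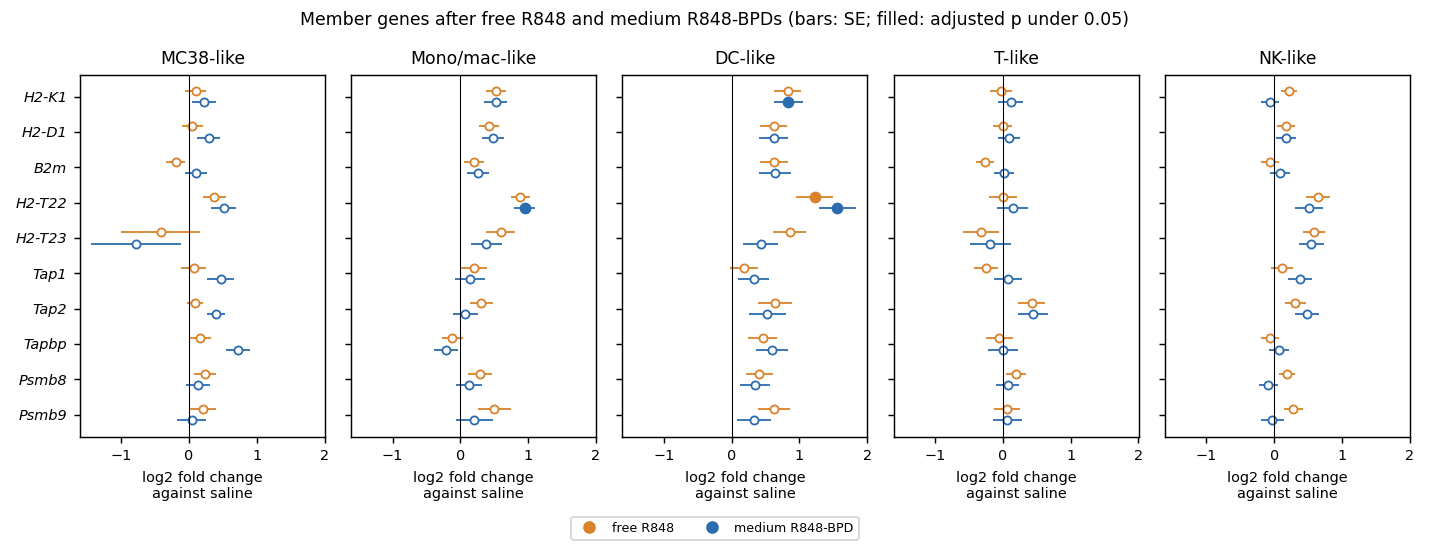
Points give the log2 fold change of each member against saline in the 5 classes of cells after free R848 (orange) and medium R848-BPDs (blue), with standard errors as bars and filled points where the adjusted p was below 0.05. The filled points are *H2-T22* in monocyte/macrophage-like cells (0.95) and *H2-T22* (1.22 and 1.56) and *H2-K1* (0.84) in DC-like cells.

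In monocyte/macrophage-like cells, *H2-T22*, *H2-K1*, *H2-D1* and *B2m* were above saline in each treated tumor. *H2-T22* was 138, 168 and 171 CPM after saline, 287, 270.1 and 326 after free R848 and 275 and 339 after medium R848-BPDs. No treated tumor reached down to the saline range. The log2 fold change was 0.95 ± 0.15 after medium R848-BPDs (adjusted p = 0.010, edgeR) and 0.89 ± 0.14 after free R848, which was not called (adjusted p = 0.17). The first call was lost without medium R848-BPD replicate 2 (adjusted p = 0.12) and when only the saline and medium R848-BPD tumors were fitted (0.053), and over 17 alternatives its log2 fold change ran from 0.79 to 1.09 and its adjusted p from 4.9e-06 to 0.12. The second was gained with DESeq2 (0.00022), with no filter on low counts (1.1e-05) and without saline replicate 2 (0.027). In these cells 1 of 10 members was called after medium R848-BPDs, where 6.86% of all genes were called, 0 of 10 after free R848 (0.0183% of genes) and 0 of 10 between the treatments (1.65%). At an unadjusted p under 0.05 the counts of members were 3, 4 and 0, beside 2651, 1431 and 1579 of all 10944 genes.

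*H2-K1* was 2963, 3758 and 3633 CPM after saline, 5237, 4601 and 5047 after free R848 and 4675 and 5231 after medium R848-BPDs. The treated and saline tumors did not overlap, and the log2 fold change was 0.52 ± 0.15 and 0.52 ± 0.17, but neither was called (adjusted p = 0.23 and 0.095, edgeR). With DESeq2 both were (0.047 and 0.020), and without saline replicate 2 the second was (0.044). *H2-D1* was 3198, 3533 and 3821 CPM after saline, against 4421 to 5145 and 4507 to 5283 (0.42 ± 0.15 and 0.48 ± 0.16, adjusted p = 0.30 and 0.11, edgeR). *B2m* was 4142, 4809 and 5052 CPM, against 5057 to 5620.2 and 5225 to 5921 (0.20 ± 0.14 and 0.26 ± 0.16, not called).

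Every tumor given free R848 lay above every saline tumor in 5 of 10 members in monocyte/macrophage-like cells, where 9.96% of all genes did so, and every tumor given medium R848-BPDs in 4 of 10, where 20.4% did. Between the treatments 0 of 10 did, against 17.7% of genes. These 4 were *H2-K1*, *H2-D1*, *B2m* and *H2-T22*, and *H2-T23* was added after free R848 (188 to 246 CPM against 113 to 182 after saline). The peptide supply genes overlapped with saline. *Tap1* was 404 to 599 CPM after saline, 443 to 659.7 after free R848 and 478 to 581 after medium R848-BPDs. *Psmb8* was 736 to 1013, 895 to 1185 and 854 to 955 CPM, and *Psmb9* was 136 to 235, 194 to 300.4 and 177 to 217. *Tapbp* had log2 fold changes of -0.12 ± 0.16 and -0.22 ± 0.18. The median log2 fold change of the 10 members was 0.36 for free R848 and 0.23 for medium R848-BPDs, against 0.00 over all genes in both.

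Markers of other cells in the monocyte/macrophage-like sums moved with treatment. The 5 osteoclast markers summed to 875 to 1188 CPM after medium R848-BPDs, 520.4 to 598 after free R848 and 153 to 669 after saline, and the NK markers to 89.3 to 127, 9.04 to 23.7 and 31.1 to 63.3. Some lists stood apart from saline after both treatments, as *H2-T22* did. The neutrophil markers summed to 91.5 to 177 CPM after medium R848-BPDs, 76.9 to 144 after free R848 and 30.7 to 57.9 after saline, and the cDC2 markers to 146 to 161, 195 to 249.7 and 262 to 484. The cDC1 markers summed to 43.4 to 58.3, 93.2 to 100.4 and 100.5 to 126 CPM. The macrophage markers overlapped, at 6518 to 7565, 7447 to 9547 and 7186 to 10596 CPM. Their part in the class I values was not tested.

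In DC-like cells, *H2-T22* rose after both treatments and *H2-K1* after medium R848-BPDs, and the other members were not called. The cells sorted by markers and the cells of DC clusters differed in number mainly in saline tumors. Saline replicates 1, 2 and 3 had 92, 10 and 60 sorted cells and 33, 7 and 24 cells in DC clusters. Free R848 tumors had 37, 51 and 45 against 36, 42 and 39, and medium R848-BPD tumors 96 and 59 against 107 and 62. The part of this difference in the class I values was not tested beyond the fit on clusters, which drops saline replicate 2 because it has fewer than 10 cells there. *H2-T22* was 92.4, 110.4 and 148 CPM after saline, 281, 273 and 247 after free R848 and 328 and 349 after medium R848-BPDs, so that both treated groups stood clear of saline. The log2 fold change was 1.56 ± 0.28 after medium R848-BPDs (adjusted p = 0.0032, edgeR) and 1.22 ± 0.27 after free R848 (0.046). The first held in 16 of 17 alternatives and was lost only without saline replicate 1 (adjusted p = 0.061). The second held in 7 of 17, with log2 fold changes from 0.94 to 1.47. It was lost with RLE size factors (0.057), DESeq2 (0.062), only 2 treatments (0.060), a replicate block (0.13) and clusters in place of the marker sort (0.29), and without free R848 replicate 1 (0.19), 2 (0.13) or 3 (0.063) or saline replicate 1 (0.44) or 3 (0.067).

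*H2-K1* in DC-like cells was 3233, 4239 and 4273 CPM after saline, 7226, 6964 and 6597 after free R848 and 7908 and 6042 after medium R848-BPDs. The lowest treated tumor was above the highest saline tumor. The log2 fold change was 0.84 ± 0.22 after medium R848-BPDs (adjusted p = 0.025, edgeR) and 0.83 ± 0.20 after free R848 (0.074, not called). When DC-like cells were taken from clusters instead, which also drops saline replicate 2, the first was 0.35 (adjusted p = 0.45). Without that replicate alone it was 0.90 (0.0077). It was also lost with a replicate block (0.11), when only 2 treatments were fitted (0.070), and without medium R848-BPD replicate 1 (0.27), saline replicate 1 (0.15), saline replicate 3 (0.0501) or free R848 replicate 2 (0.054).

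*H2-D1* and *B2m* followed the same order without a call. *H2-D1* was 3109, 4349.5 and 3796 CPM after saline, 5479 to 6039 after free R848 and 5104 to 6355 after medium R848-BPDs (0.62 ± 0.20 and 0.62 ± 0.22). *B2m* was 3203, 5189 and 3665 CPM, against 5781 to 6581 and 5980.4 to 6443 (0.62 ± 0.21 and 0.64 ± 0.23). Saline replicate 2, with 10 DC-like cells, was the saline tumor nearest to the treated ones in both genes, and without it both were called after both treatments (adjusted p from 0.0061 to 0.029, edgeR). With a stricter sort (at least 3 markers and a lead of 0.2) they were called too (0.0041 to 0.023), but that sort left 7 cells in saline replicate 2 and so dropped the same tumor. Taking DC-like cells from clusters drops that tumor as well, and there neither gene was called after free R848.

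In DC-like cells 2 of 10 members were called after medium R848-BPDs, where 8.59% of genes were, 1 of 10 after free R848 (0.701%) and 0 of 10 between the treatments (0.1%, with 0 members and 430 of 4996 genes at an unadjusted p under 0.05). Every treated tumor lay above every saline tumor in 8 of 10 members in both contrasts with saline, where 9.47% of genes did so for free R848 and 17.7% for medium R848-BPDs. Between the treatments 2 members lay above and 2 below, where 12.5% of genes lay above. The share of genes lying below was not computed. The median log2 fold change of the members was 0.62 and 0.56, against 0.02 over all genes in both. *Psmb8* was 1785, 1788 and 1616 CPM after saline and 2004 to 2471 and 2058 to 2327 after treatment, and *Tapbp* was 684 to 794 against 937 to 1157 and 1047 to 1179.8, without a call. *H2-T23* was 159 to 199 CPM after saline, 303 to 347 after free R848 and 211 to 272 after medium R848-BPDs (0.86 ± 0.24 and 0.43 ± 0.26, not called). *Tap1*, *Tap2* and *Psmb9* overlapped with saline in 1 or both contrasts. In the same order of groups *Tap1* was 734 to 883, 816 to 965 and 971 to 981 CPM, *Tap2* was 219 to 419, 413 to 443 and 367 to 427, and *Psmb9* was 331 to 464, 567 to 664 and 436 to 563.

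The makeup of the DC-like cells differed between treatments by their markers. The cDC1 markers summed to 929 to 1557 CPM after saline, 489 to 889.8 after free R848 and 407 to 827 after medium R848-BPDs, and the cDC2 markers to 747 to 1136, 529.9 to 768 and 447 to 800. The mature DC markers summed to 4805 to 8262, 8151 to 10068 and 6978 to 9627 CPM. Markers of other cells were low but also differed. In the same order, the osteoclast markers summed to 58.5 to 61.1, 54.2 to 79.2 and 145 to 380.2 CPM, and the NK markers to 0 to 25.4, 9.03 to 15.8 and 64.4 to 262. The neutrophil markers summed to 0 to 4.03, 0 to 13.6 and 12.5 to 222 CPM, and the B cell markers to 0 to 6.05, 9.06 to 35.6 and 7.16 to 16.8. Their part in the class I values was not tested.

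MC38-like cells showed no called change in any member. *H2-K1* was 2194, 3003 and 2689 CPM after saline, 3222, 2458 and 2749 after free R848 and 3593 and 2526 after medium R848-BPDs, and the 3 groups overlapped. *B2m* was 1455, 2021 and 1837, then 1756, 1389 and 1489.6, then 2109 and 1688 CPM. The log2 fold changes of the 2 genes were 0.10 ± 0.16 and -0.20 ± 0.14 after free R848, and 0.22 ± 0.17 and 0.10 ± 0.16 after medium R848-BPDs. Of these, 3 turned sign when 1 tumor was left out. *H2-K1* after free R848 became -0.02 without free R848 replicate 1 or saline replicate 1. After medium R848-BPDs *H2-K1* became -0.06 and *B2m* -0.07 without medium R848-BPD replicate 1, and *B2m* -0.02 without saline replicate 1.

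*Tapbp* came closest to a call in these cells. It was 505, 753 and 557 CPM after saline, 716, 579 and 741 after free R848 and 884 and 1114 after medium R848-BPDs, so the medium R848-BPD tumors lay above all 6 others. The log2 fold change was 0.72 ± 0.18 against saline (adjusted p = 0.10, edgeR) and 0.56 ± 0.18 against free R848 (0.21). Against saline it was called with DESeq2 (0.0034), with no filter on low counts (1.2e-05), with the stricter sort (0.038), and without saline replicate 2 (0.032) or medium R848-BPD replicate 1 (0.026), and over the alternatives its adjusted p ran up to 0.36. *Tap1* was 338 to 523 CPM after saline and 524 and 607 after medium R848-BPDs (0.47 ± 0.20), and *Tap2* was 145 to 176 against 206 and 221 (0.39 ± 0.13), both without a call.

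Over all genes of MC38-like cells, 0.717% were called after medium R848-BPDs, 0.00943% after free R848 and 0.16% between the treatments, and the 0 of 10 members stand beside these. At an unadjusted p under 0.05 there were 4, 1 and 2 members, beside 1352, 788 and 1439 of all 10602 genes. Every tumor lay above saline in 4 of 10 members after medium R848-BPDs, where 12.5% of genes did, and in 0 of 10 after free R848 (8.82%). Between the treatments, 2 of 10 members were higher in each medium R848-BPD tumor than in any free R848 tumor (14.3% of genes). The summed macrophage markers in MC38-like cells were 92.0 to 545 CPM after saline, 85.9 to 255 after free R848 and up to 567 after medium R848-BPDs, and overlapped. The 4 MC38 markers themselves summed to 1989.7 to 2446 CPM in the medium R848-BPD tumors, against 2675 to 3397 after saline and 2713 to 2791 after free R848. The neutrophil markers summed to 11.04 and 11.09 CPM, against 0 to 4.82 after saline and 2.79 to 6.87 after free R848. Both lists set the 2 medium R848-BPD tumors apart from the other 6, as *Tapbp* did, and their part in the class I values was not tested.

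**Figure D4:**
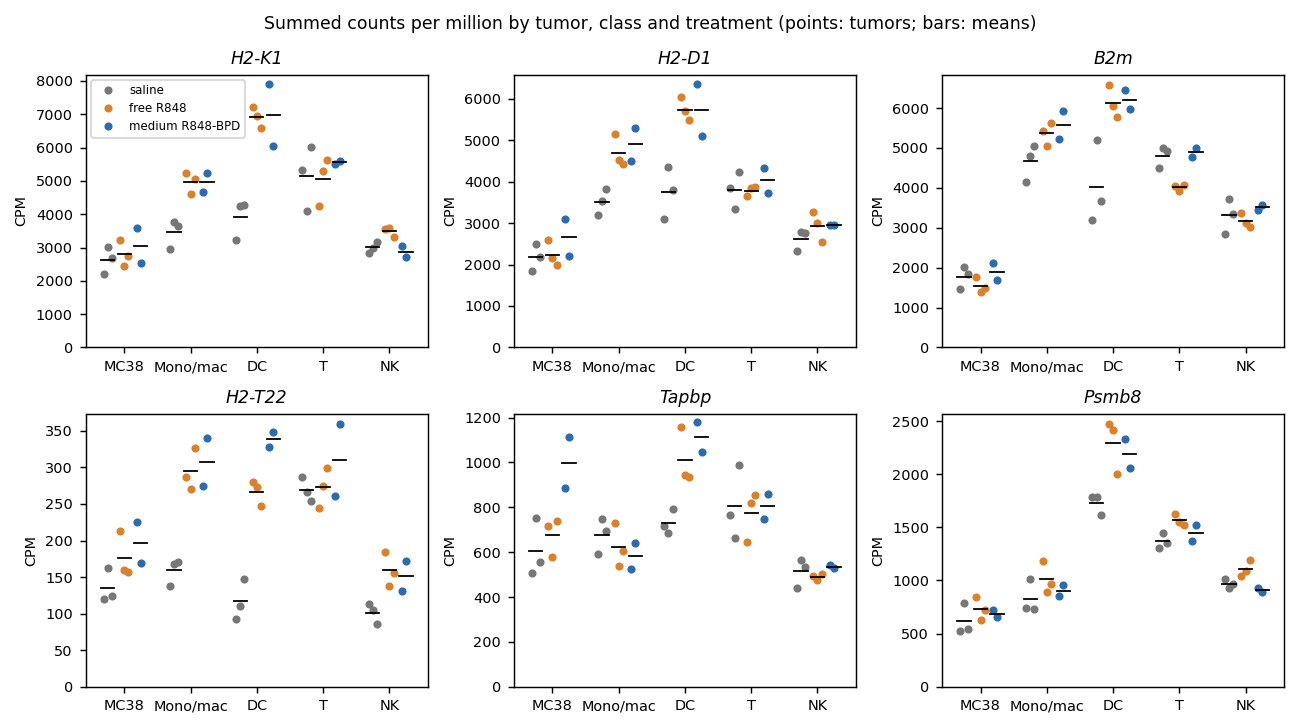
CPM (linear axes from 0) of 6 members in each tumor, by class of cells and treatment, with bars at the group means (2 or 3 tumors). *H2-T22* in monocyte/macrophage-like and DC-like cells shows both treated groups apart from saline, *Tapbp* in MC38-like cells shows only the 2 medium R848-BPD tumors apart, and *B2m* in MC38-like cells overlaps across treatments.

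T-like and NK-like cells had no called member either. In T-like cells *H2-K1* was 4109 to 6018 CPM after saline, 4256 to 5628 after free R848 and 5504 to 5613 after medium R848-BPDs, and *H2-T22* was 254 to 287, 244 to 299 and 260.2 to 359.5, all overlapping. *Tap2* was 201 to 242 CPM after saline, 261 to 318 after free R848 and 284 to 309.6 after medium R848-BPDs (0.42 ± 0.20 and 0.44 ± 0.22, not called). Of all genes in T-like cells 0.0898%, 0.0359% and 0.0539% were called (free R848 and medium R848-BPDs against saline, and one against the other), and the members at an unadjusted p under 0.05 were 1, 0 and 0, beside 286, 365 and 418 of all 5569 genes. Members wholly above the other group were 2, 1 and 2 of 10, against 5.71%, 10.9% and 13.2% of genes. Those wholly below it were 2, 0 and 1, for which the share over all genes was not computed. The T markers of the T-like sums were 1124 to 1616 CPM after medium R848-BPDs, 1608 to 2812 after free R848 and 1936 to 2499 after saline. The NK markers in T-like sums were 1647 to 2138 CPM after medium R848-BPDs, 169.8 to 287 after free R848 and 164 to 445 after saline, and in both medium R848-BPD tumors they exceeded the T markers. The osteoclast markers were 146 to 289.6 CPM after medium R848-BPDs, 93.4 to 108 after free R848 and 40.5 to 117 after saline. The cDC2 markers were 27.4 to 56.6, 12.5 to 43.6 and 99.3 to 149 CPM, and the neutrophil markers 9.14 to 22.6, 5.69 to 12.7 and 0 to 4.32. Their part in the class I values was not tested.

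In NK-like cells *H2-T22* was 113, 105 and 85.7 CPM after saline, 184, 138 and 156 after free R848 and 132 and 172 after medium R848-BPDs. *H2-T23* was 98.7, 103 and 90.4, then 159, 123 and 159.9, then 141 and 146 CPM. Both genes were above saline in each treated tumor, with log2 fold changes of 0.64 ± 0.18 and 0.58 ± 0.16 after free R848 and 0.51 ± 0.20 and 0.55 ± 0.18 after medium R848-BPDs, and neither was called by edgeR. The call rates over all genes were 0% after free R848, 0.536% after medium R848-BPDs and 0.107% between the treatments. At an unadjusted p under 0.05 there were 2, 3 and 0 members, beside 340, 809 and 687 of all 8403 genes. Members above saline in every tumor were 6 and 4 of 10, and 2 of 10 between the treatments, against 5.27%, 13% and 13.7% of genes. None lay wholly below saline, and 3 of 10 lay wholly below free R848 after medium R848-BPDs. The share of all genes lying wholly below was not computed, so no result is drawn from these counts. *H2-K1* was 2832 to 3174 CPM after saline, 3326 to 3585 after free R848 and 2723 to 3033 after medium R848-BPDs (-0.28 ± 0.14 between the treatments, not called). The NK markers of these cells summed to 2534 to 4662 CPM after saline, 4846 to 6009 after free R848 and 7344 to 11768 after medium R848-BPDs, and the neutrophil markers to 0 to 1.67, 2.05 to 15.8 and 7.44 to 76.0. Both stood apart from saline after both treatments, as *H2-T22* and *H2-T23* did, and their part in the class I values was not tested.

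Whether monocyte/macrophage-like cells responded differently from MC38-like cells was tested with a class-by-treatment term. For the members 0 of 10 such differences were called against saline after medium R848-BPDs (1.15% of genes), after free R848 (0% of genes) or between the treatments (0.496%). At an unadjusted p under 0.05 there were 2, 3 and 2 members, beside 1192, 592 and 867 of all 10880 genes. For *H2-T22* the response was larger in monocyte/macrophage-like cells by 0.46 ± 0.26 on the log2 scale after medium R848-BPDs and by 0.52 ± 0.23 after free R848. For *Tapbp* it was smaller, at -0.90 ± 0.27 after medium R848-BPDs (adjusted p = 0.12, edgeR), and this was called with the stricter sort (-1.01, 0.025) and without saline replicate 2 (-1.02, 0.025). For *H2-T23*, read by few UMIs in MC38-like cells, the difference after medium R848-BPDs was 1.40 ± 0.50 and was called only without medium R848-BPD replicate 1 (2.19, 0.040). It rests on saline replicate 2, which holds 54 of the 64 saline UMIs of *H2-T23* in MC38-like cells. Without that tumor the *H2-T23* response of MC38-like cells turned from -0.78 to 0.45 after medium R848-BPDs and from -0.42 to 0.81 after free R848, so no direction is drawn from it.

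Other genes of the pathway were counted over 3 lists. Of the 12 other class I presentation genes, 1 rose with medium R848-BPDs in monocyte/macrophage-like cells, and none was called in MC38-like cells. In that contrast 6.86% of all genes were called, which 1 of 12 is near. That gene, *H2-Q6*, was 163, 227 and 238 CPM after saline and 398 and 388 after medium R848-BPDs, which do not overlap (0.91 ± 0.18, adjusted p = 0.022, edgeR). It was 392, 326 and 409 after free R848. In DC-like cells 3 of the 12 rose after medium R848-BPDs, *H2-Q4* (1.19 ± 0.31), *H2-Q6* (1.36 ± 0.28) and *H2-Q7* (1.30 ± 0.34), and 2 after free R848, *H2-Q4* (1.47 ± 0.29) and *H2-Q6* (1.29 ± 0.26). All are nonclassical heavy chain genes. Over all genes of DC-like cells 8.59% and 0.701% were called. None of the 12 was called in T-like or NK-like cells.

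Of the 7 other 20S β subunits, 1 was called. *Psmb5*, the constitutive counterpart of *Psmb8*, was 38.1, 40.9 and 41.0 CPM after saline and 67.8 and 62.0 after medium R848-BPDs in monocyte/macrophage-like cells (0.70 ± 0.17, adjusted p = 0.046, edgeR), beside the same 6.86% over all genes. None of the 10 regulators and interferon receptors was called in any class or contrast. *Nlrc5* was 55.1 to 77.8 CPM after saline in monocyte/macrophage-like cells, 59.2 to 85.1 after free R848 and 53.3 to 71.4 after medium R848-BPDs. *Irf1* spread more widely, from 190 to 431, from 147 to 670 and from 224 to 349 CPM.

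Heavy chain transcripts are similar in sequence, and how the authors assigned reads shared by *H2-K1*, *H2-D1*, *H2-Q* and *H2-T* genes is not given in the sources used here. The split of UMIs between these genes is therefore uncertain, *H2-T22*, *H2-Q6* and *H2-Q7* included. Levels of different members are not compared with each other, since the reads come from the 3′ end and depend on the gene. The same limit holds for the NK and T markers set beside each other in T-like cells.

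The members also varied alongside each other. After centring on each class, the log2 CPM of each member over the 40 sums of tumor and class correlated with the mean of the other 9 at Pearson's r from 0.58 (*Tapbp*) to 0.85 (*H2-D1*), which is a description of sums that share 8 tumors. Among 4885 genes outside the lists (mean log2 CPM in every class not under 4), those most like the mean of the members were *Gbp4* (r = 0.78), *Gbp2* (0.75) and *Gbp5* (0.71), which encode interferon-induced guanylate-binding proteins, *AW112010* (0.71) and the chemokine gene *Ccl5* (0.71).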

How the data were processed

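For each tumor, raw UMI counts by gene and barcode were deposited, without normalization by the authors. The submitters' processing notes name bcl2fastq and mm10, and the aligner and annotation are not given in the sources used here. The members and lists were chosen with earlier results of these data known. Cells were kept above 400 and below 10000 genes, below 50000 UMIs and up to 15% mitochondrial UMIs. No doublet caller was run and doublets were kept. Each cell went to the class with the highest share of its markers detected (at least 2), which left out 223 ties and 204 cells with too few markers. 1 of 64 markers, *Adgre1*, is not listed under that symbol. Counts were added up over the cells of a class in a tumor, with 10 cells as the minimum (49501 to 7097427 UMIs per sum) and tested with edgeR 4.0.16 in R 4.3.3 (TMM, filterByExpr, quasi-likelihood F test, Benjamini-Hochberg adjustment over all genes, 0.05). Standard errors were derived from the log2 fold change and its F statistic. The fit across classes had tumor as a block. All members are named, and genes of the 3 lists are named where called in MC38-like or monocyte/macrophage-like cells, or otherwise after their values were seen. The code was tested on simulated data. Alternatives were a replicate block, RLE size factors, DESeq2 1.42.0, 2 treatments only, no filter, a stricter sort, Seurat 5.3.0 clusters, stricter limits on cells (at most 10% mitochondrial UMIs, at least 1000 UMIs), other depths, each tumor left out and, chosen after seeing the data, no barcodes shared between tumors. Python 3.11.15 with numpy 2.4.6, pandas 2.3.3 and matplotlib 3.10.9 was also used. In the fits within a class, p-values measure the spread between tumors. In the fit across classes, where tumor is a block, they measure the spread left within tumors, pooled over classes and treatments.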

Additional observations from a re-analysis of the deposited data

How the results depend on the processing

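Counts of called members are small and depend on the setting. Over the 50 pairs of member and class, 1 was called after free R848 against saline, and 0 with RLE size factors, with only the 2 treatments compared, with Seurat clusters and with a replicate block, 3 with DESeq2, 4 with no filter on low counts, 5 with the stricter gate and 5 with stricter limits on cells. Leaving out 1 tumor gave 0 to 7. The stricter gate, the stricter limits and the Seurat clusters also drop saline replicate 2 from the DC-like fit (7, 9 and 7 cells), so their counts do not show the effect of that choice alone. After medium R848-BPDs against saline 3 were called, and 6 with DESeq2, 6 with no filter, 6 with the stricter gate, 5 with stricter limits on cells and 1 with only the 2 treatments compared, while leaving out 1 tumor gave 1 to 7. Calls over all genes moved with the setting too. After free R848 they were 2 in monocyte/macrophage-like and 35 in DC-like cells. They were 95 and 36 with DESeq2, and 610 and 219 with no filter. With the stricter gate they were 2 and 269, and with stricter limits 2 and 316. After medium R848-BPDs they were 751 and 429, then 963 and 234, 1731 and 659, 768 and 639, and 758 and 664 in the same order. In both contrasts the count of 7 pairs of member and class came without saline replicate 2, which has 10 DC-like cells. Between the 2 treatments 0 were called, and 1 with DESeq2 and 1 with no filter. Of the class-by-treatment differences after medium R848-BPDs, 0 were called, 1 with the stricter gate and 0 to 1 without 1 tumor. The cause was not tested. Leaving out shared barcodes moved none of these counts by over 1.5 times. Whether replicate numbers pair the tumors was not decided. Same-numbered tumors correlated from -0.43 to 0.38, but tumors of different numbers were not compared. With a replicate block, 2 pairs of member and class were called after medium R848-BPDs. Between classes the counts of 9, 9, 8 and 5 members stayed within 1.5 times in each alternative that was run, and no called member changed direction. Of 2547 values of members under the alternatives, 136 changed sign, all with a log2 fold change of at most 0.78 in size as reported. With 2 or 3 tumors a group and 10 to 96 DC-like cells a tumor, small changes may have been missed.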
